A study of Mus musculus with 18 samples.

Results

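Glycolysis and hypoxia genes were followed in mouse dendritic cells through a day of lipopolysaccharide (LPS). A list of 33 genes was taken, covering glucose and lactate carriers, the enzymes of glycolysis and genes known to be driven by low oxygen, and a gene was read from the probe set annotated to it alone with the highest mean. Of the 33 genes, 29 were read, out of 12394 genes in all, and 26 lay above an array's median often enough to be tested. Hk3, Gpi1, Eno1 and Bnip3l had no such probe set and are not analysed here, while Eno2, P4ha2 and Adm stayed under the filter on dim genes. The cells were grown from the bone marrow of C57BL/6 mice aged 6 to 8 weeks for 7 to 10 days in supernatant of B16 tumor cells carrying a GM-CSF transgene (GM-CSF drives marrow precursors towards dendritic cells), and were used when over 90% carried CD11c. There were 3 conditions, namely wild type cells, the same cells stimulated in the presence of 2 mM EGTA, a chelator of extracellular calcium, and cells of Cd14-/- mice, which lack the surface protein that hands LPS to its receptor TLR4. Each condition had 1 array without LPS and 1 array after 2, 4, 6, 12 and 24 h of LPS, which makes 18 arrays. LPS was at 1 µg/ml for both wild type conditions and at a concentration not given in the labels for Cd14-deficient cells. Unstimulated cells were harvested 24 h after plating, so that at 2 to 12 h an effect of LPS cannot be told apart from one of time since plating. The title of the unstimulated EGTA array names EGTA, while its protocol mentions plating alone.

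Glycolysis splits glucose into pyruvate, and lactate dehydrogenase turns pyruvate into lactate, which leaves the cell through a carrier. When oxygen is low, the factor HIF escapes prolyl hydroxylation, binds short motifs near many glycolytic genes and raises them, together with genes of blood vessel growth, mitophagy and its own hydroxylases. Dendritic cells and macrophages are known to take up more glucose and release more lactate after LPS, and part of this early response runs through kinases and hexokinase activity rather than through new messenger RNA.

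The deposited values were intensities made with MAS5, and levels below are quantile-normalised log2(intensity + 16), so 1 unit is a doubling for genes well above 16 and less is seen of changes in dim genes. Levels of different genes are not comparable on this scale. Cd14 followed the labels, with a difference of -8.21 in Cd14-deficient cells. RNA integrity numbers ran from 8.7 to 10, and the lowest 2 values, 8.8 and 8.7, belonged to the EGTA cells at 12 and 24 h. The unstimulated EGTA array had the lowest median correlation with the other arrays, 0.933. Itgax, which encodes CD11c, was above the median on all 18 arrays, while Flt3, a receptor of conventional dendritic cell precursors, was at or below the median on 17 of 18. All 6 T and NK cell markers read were at or below the median on every array, and so were the B cell markers Cd79a, Cd79b, Ms4a1 and Pax5 and the melanoma markers Tyr, Tyrp1, Dct and Pmel. The other members read of these lists went the other way. Blnk (B cell) and Mitf (melanoma) were above the median on every array, and Ighm (B cell) on all but 1. Granulocyte and macrophage markers were present, apart from Cxcr2 (granulocyte), which was at or below the median on all 18 arrays. Mpo (granulocyte) was so on 12 arrays and each of the others on at most 6. Values of both lists stand beside the results they moved with. In RNA of whole cultures, fewer cells of a type and less RNA per cell cannot be told apart.

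Averaged over the 3 conditions, most of the glycolysis and hypoxia genes were lower after LPS than in unstimulated cells. A small group that holds Hif1a, Hk2 and Pfkfb3 was higher. The mean over times includes 2 to 12 h, where time since plating differed as well. Over the mean of the 5 times, 19 of the 26 tested genes fell and 4 rose against unstimulated cells (limma, Benjamini-Hochberg adjustment at 0.05), where 62% of all 7056 genes tested were called and 34.7% were called lower. The median change of the 26 genes was -0.61, against -0.05 over all genes tested. By time, 12 genes were called at 2 h (2 higher, 10 lower), where 41.3% of all genes were. At 4 h there were 21 (4 higher, 17 lower; 60.8% of all genes), at 6 h again 21 (4 higher, 17 lower; 60%), at 12 h 22 (4 higher, 18 lower; 56.6%) and at 24 h 15 (4 higher, 11 lower; 52.2%). At 24 h, the only contrast matched for time since plating, the share called lay close to that of all genes. In wild type cells the median change at 24 h was 0.035, with 12 of the 26 genes lower and 14 higher. With EGTA it was -0.44 and in Cd14-deficient cells -0.31, each from single arrays. Centring each array on its median in place of quantile normalisation moved the median of all genes from -0.05 to 0.09 for the mean LPS effect, and no scaling moved it to -0.32. With that centring 6 genes were called higher and 5 lower after 2 h, 6 and 13 after 4 h, and 5 and 7 after 24 h. Most granulocyte markers fell on the same arrays, with 10 of 12 tested lower (Ltf -1.95, Ngp -1.50) and 2 higher in the mean LPS effect. Their summed intensity was 14742 to 38893 on the wild type LPS arrays against 45205 without LPS. Of 11 macrophage markers tested, 7 were lower and 2 higher, and the part of either list in the result was not tested.

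**Figure D1:**
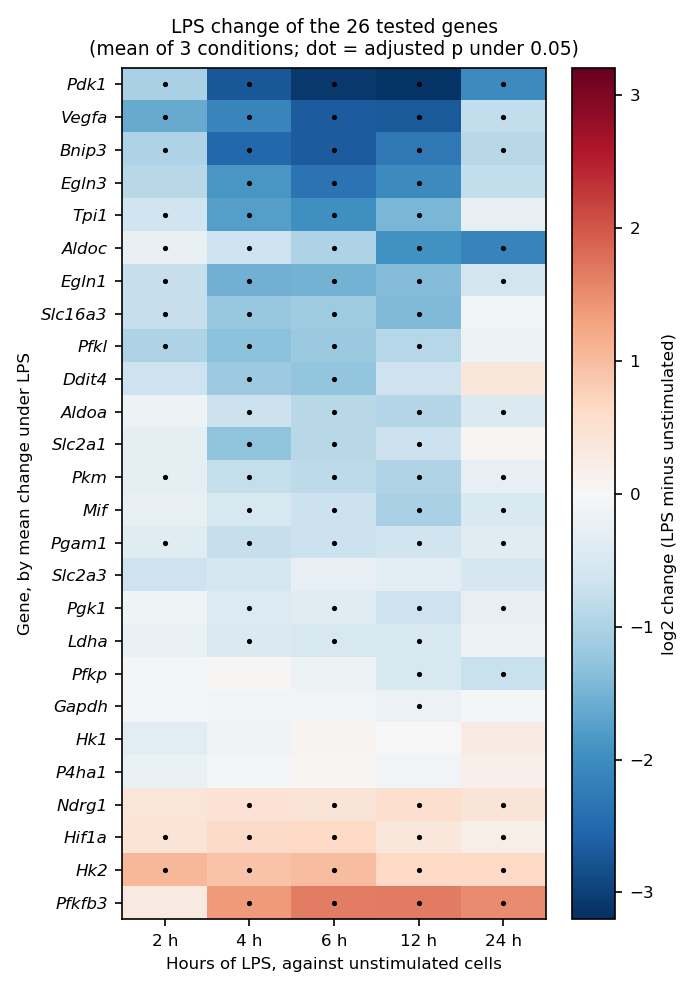
Heat map of the log2 change from unstimulated cells (colour, mean of 3 conditions) for the 26 tested genes (rows, ordered by the mean change) at 5 times of LPS (columns), with a dot where the adjusted p was under 0.05. Of the 19 genes that fell, 4 are lowest after 4 h, 5 after 6 h and 8 after 12 h, 17 are paler at 24 than at 12 h, Aldoc goes on falling to -2.14, and Ndrg1, Hif1a, Hk2 and Pfkfb3 are red at all 5 times.

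In the mean over the 5 times, the deepest falls were in genes known as HIF targets outside the glycolytic chain. In the lists of values below, each condition runs in the order without LPS, then 2, 4, 6, 12 and 24 h. Pdk1, the kinase that shuts pyruvate dehydrogenase and so keeps pyruvate out of the mitochondria, was at 10.29, 9.30, 7.57, 7.06, 7.54 and 8.81 in wild type cells, 10.29, 9.23, 7.58, 7.51, 7.14 and 7.86 with EGTA, and 10.39, 9.35, 7.72, 7.17, 6.90 and 8.20 in Cd14-deficient cells. It fell in every condition to a floor at 6 or 12 h, with a mean change of -2.40 ± 0.15 (adjusted p = 2.72e-09), a 5.27-fold fall. Vegfa, the growth factor of blood vessels, was at 9.88, 7.92, 7.86, 7.48, 7.58 and 9.76 in wild type cells, 9.60, 7.82, 7.26, 6.90, 6.68 and 8.48 with EGTA, and 9.28, 8.20, 7.29, 6.36, 6.46 and 8.17 in Cd14-deficient cells. Its lowest arrays were those of EGTA and Cd14-deficient cells at 6 and 12 h, and the mean change was -1.97 ± 0.19 (adjusted p = 2.84e-07). The other probe set of Vegfa gave -0.85, less than the falls of Bnip3, Egln1 and Tpi1, so its place among the deepest falls rests on the probe set used. Bnip3, a mitophagy receptor on the outer mitochondrial membrane, was at 10.92, 10.01, 8.41, 8.24, 9.15 and 10.97 in wild type cells, 10.79, 9.82, 8.22, 8.22, 8.41 and 9.38 with EGTA, and 10.83, 9.76, 8.36, 8.09, 8.17 and 9.52 in Cd14-deficient cells. By 4 h the change from the unstimulated array was -2.51, -2.57 and -2.48 in these conditions, and the mean change over all times was -1.87 ± 0.19 (adjusted p = 5e-07).

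The HIF prolyl hydroxylases followed the same course. Egln1, the main oxygen sensor that marks HIF for degradation, was at 9.14, 8.33, 7.43, 7.43, 7.84 and 9.01 in wild type cells, 8.89, 8.22, 7.22, 7.34, 7.47 and 8.13 with EGTA, and 8.96, 8.24, 7.69, 7.69, 7.56 and 8.08 in Cd14-deficient cells, with a mean change of -1.15 ± 0.13 (adjusted p = 2.36e-06). Egln3, its inducible relative, was at 8.85, 8.16, 6.83, 6.22, 7.18 and 9.22 in wild type cells, 9.01, 8.29, 6.80, 6.44, 6.38 and 7.32 with EGTA, and 8.87, 7.65, 7.54, 6.95, 7.09 and 7.83 in Cd14-deficient cells. The Cd14-deficient arrays fell less deeply than the others at 4 and 6 h, and the mean change of Egln3 was -1.58 ± 0.28 (adjusted p = 0.000152). Ddit4, a stress-induced inhibitor of the growth kinase mTOR, was at 7.80, 6.61, 6.54, 6.35, 7.41 and 8.91 in wild type cells, 8.89, 7.99, 7.39, 7.46, 7.65 and 8.55 with EGTA, and 7.40, 7.53, 6.70, 6.51, 7.03 and 7.71 in Cd14-deficient cells. The EGTA arrays lay above wild type by 1.08 without LPS and by 1.38, 0.85 and 1.11 at 2, 4 and 6 h. The mean change of Ddit4 was -0.67 ± 0.23 (adjusted p = 0.0185). It was no longer called without the unstimulated EGTA array or without the unstimulated wild type array. Mif, a cytokine gene with a known hypoxia response, ranged from 11.34 to 12.53 and changed by -0.59 ± 0.082 (adjusted p = 1.57e-05).

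Among the carriers, Slc2a1 (GLUT1), the main glucose importer of activated myeloid cells, was at 11.43, 11.35, 10.17, 10.69, 11.13 and 12.23 in wild type cells, 11.28, 10.59, 9.80, 10.45, 10.28 and 10.83 with EGTA, and 11.46, 11.27, 10.31, 10.37, 10.66 and 11.24 in Cd14-deficient cells. It was lowest at 4 h in all 3 conditions and highest of all 18 arrays in wild type cells at 24 h, and the mean change was -0.63 ± 0.15 (adjusted p = 0.0018). Slc16a3 (MCT4), the lactate exporter, was at 8.63, 8.39, 8.0, 7.83, 7.73 and 9.36 in wild type cells, 8.47, 8.04, 6.99, 7.46, 7.19 and 8.61 with EGTA, and 9.42, 7.84, 7.87, 7.82, 7.35 and 8.25 in Cd14-deficient cells. Its mean change was -0.92 ± 0.20 (adjusted p = 0.000761), and the unstimulated Cd14-deficient array was the highest of the 18. Slc2a3 (GLUT3), a glucose importer of high affinity, was at 7.62, 6.73, 6.38, 6.74, 6.90 and 6.58 in wild type cells, 7.35, 6.67, 6.38, 6.65, 6.40 and 6.79 with EGTA, and 7.69, 7.28, 8.25, 8.47, 8.28 and 7.64 in Cd14-deficient cells. Both wild type conditions went down at all 5 times, while Cd14-deficient cells were above their start from 4 to 12 h, and over the 3 conditions the change did not pass the test, -0.48 ± 0.23 (adjusted p = 0.0828).

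Within the glycolytic chain no mean fall was as large as those of Pdk1 and Bnip3, and the falls ran through both its upper and its lower part. Tpi1, triose phosphate isomerase, was at 12.57, 11.88, 10.84, 10.62, 11.38 and 12.76 in wild type cells, 12.58, 11.89, 10.60, 10.46, 10.85 and 11.95 with EGTA, and 12.52, 11.99, 10.96, 10.73, 11.03 and 12.16 in Cd14-deficient cells. Its mean change was -1.22 ± 0.11 (adjusted p = 1.04e-07), with the lowest level at 6 h in all 3 conditions. Aldoc, an aldolase best known from brain, was at 11.02, 10.73, 10.36, 9.96, 9.11 and 8.76 in wild type cells, 10.97, 10.73, 10.22, 9.91, 8.98 and 8.90 with EGTA, and 10.94, 10.73, 10.35, 10.14, 9.07 and 8.86 in Cd14-deficient cells. Its mean change was -1.19 ± 0.059 (adjusted p = 2.04e-10), close to that of Tpi1. It fell at each later time in all 3 conditions, to -2.14 at 24 h against -1.96 for Tpi1 at its lowest, and the conditions overlapped throughout. At 24 h Pdk1 was at -2.04, so the deepest mean falls were not the deepest at that time. Pfkl, the liver-type subunit of phosphofructokinase, was at 10.42, 9.54, 8.97, 8.89, 9.46 and 10.44 in wild type cells, 10.46, 9.43, 8.82, 9.18, 9.36 and 10.13 with EGTA, and 9.97, 8.95, 9.13, 9.21, 9.28 and 9.79 in Cd14-deficient cells, with a mean change of -0.91 ± 0.13 (adjusted p = 1.56e-05). The platelet-type subunit Pfkp was at 11.16, 11.30, 11.32, 11.21, 10.72 and 10.37 in wild type cells, 11.15, 11.05, 11.22, 10.88, 10.45 and 10.40 with EGTA, and 11.48, 11.35, 11.37, 11.17, 11.08 and 10.86 in Cd14-deficient cells. It was called lower at 12 and 24 h only, with a mean change of -0.28 ± 0.076 (adjusted p = 0.00492) that turned to 0.01 with median centring.

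On the probe sets used, the remaining enzymes moved less than Tpi1 and Pfkl. Other probe sets fell by as much as -0.91 for Aldoa and -0.87 for Pgk1, close to the -0.91 of Pfkl. Aldoa, another aldolase, was at 12.73, 12.42, 11.90, 11.64, 11.43 and 12.14 in wild type cells, 12.70, 12.52, 11.72, 11.70, 11.79 and 12.13 with EGTA, and 12.58, 12.58, 12.30, 12.04, 11.98 and 12.33 in Cd14-deficient cells, and changed by -0.63 ± 0.089 (adjusted p = 1.87e-05). Pgk1, phosphoglycerate kinase, was at 13.10, 12.99, 12.76, 12.72, 12.44 and 13.08 in wild type cells, 13.05, 12.99, 12.56, 12.62, 12.37 and 12.65 with EGTA, and 13.02, 12.76, 12.58, 12.69, 12.39 and 12.66 in Cd14-deficient cells, and changed by -0.37 ± 0.058 (adjusted p = 4.87e-05). Both recovered in part at 24 h. Pgam1, phosphoglycerate mutase, was at 12.55, 12.24, 11.83, 11.89, 12.06 and 12.36 in wild type cells, 12.51, 12.08, 11.72, 11.74, 11.72 and 11.95 with EGTA, and 12.48, 12.08, 11.76, 11.82, 11.82 and 12.03 in Cd14-deficient cells, and changed by -0.57 ± 0.052 (adjusted p = 1.75e-07). Ldha, which makes lactate, was at 13.02, 12.81, 12.55, 12.58, 12.75 and 13.18 in wild type cells, 12.97, 12.70, 12.33, 12.22, 12.24 and 12.54 with EGTA, and 13.03, 12.87, 12.70, 12.68, 12.57 and 12.79 in Cd14-deficient cells, and changed by -0.37 ± 0.078 (adjusted p = 0.000685). The wild type array at 24 h was the highest of all 18 for Ldha and the EGTA arrays from 4 to 12 h were the lowest. Pkm, pyruvate kinase, ranged from 11.01 to 12.21 and changed by -0.63 ± 0.068 (adjusted p = 1.33e-06), and Gapdh, read here from a control probe set at its 5′ end, ranged only from 13.35 to 13.62 and changed by -0.092 ± 0.031 (adjusted p = 0.0193). With median centring the change of Gapdh was 0.27, so its direction depends on the scaling. The highest intensities of the arrays ran from 14871 to 17247, and whether probe sets as bright as that of Gapdh still respond in proportion was not tested.

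Of the 4 genes that rose, Pfkfb3 rose most. It encodes the enzyme that makes the activator of phosphofructokinase, and was at 7.71, 8.28, 9.51, 9.83, 9.90 and 9.53 in wild type cells, 8.19, 8.69, 9.86, 10.01, 9.87 and 9.65 with EGTA, and 8.05, 7.85, 8.68, 9.04, 9.16 and 9.26 in Cd14-deficient cells. Its mean change was 1.29 ± 0.14 (adjusted p = 1.31e-06), a 2.45-fold rise. Hk2, the inducible hexokinase that phosphorylates glucose, was at 10.25, 11.29, 11.27, 11.28, 10.97 and 11.17 in wild type cells, 10.25, 11.11, 10.96, 11.06, 10.74 and 10.77 with EGTA, and 9.82, 11.09, 10.84, 10.99, 10.56 and 10.32 in Cd14-deficient cells. It was up by 1.06 at 2 h already and changed by 0.85 ± 0.079 (adjusted p = 2.31e-07) over the 5 times. Hif1a, the oxygen-regulated subunit of HIF, was at 12.20, 12.66, 12.88, 12.86, 12.67 and 12.49 in wild type cells, 12.07, 12.58, 12.79, 12.85, 12.53 and 12.25 with EGTA, and 11.94, 12.29, 12.41, 12.40, 12.13 and 12.06 in Cd14-deficient cells. Its peak lay at 4 or 6 h in all 3 conditions, and its mean change was 0.45 ± 0.048 (adjusted p = 1.07e-06). At 24 h its change was 0.20 ± 0.062 (adjusted p = 0.0149), and -0.01 without scaling. Ndrg1, a stress-response gene induced by hypoxia, ranged from 10.41 to 11.42 and changed by 0.45 ± 0.12 (adjusted p = 0.00468), a call lost without the unstimulated Cd14-deficient array. Hk1, the constitutive hexokinase, was at 9.24, 9.0, 9.41, 9.67, 9.77 and 10.01 in wild type cells, 9.88, 9.11, 9.42, 9.58, 9.29 and 9.68 with EGTA, and 9.22, 9.13, 9.15, 9.35, 9.34 and 9.44 in Cd14-deficient cells, and P4ha1, the catalytic subunit of collagen prolyl hydroxylase, was at 9.52, 9.40, 9.54, 9.64, 9.70 and 9.96 in wild type cells, 9.34, 9.17, 9.52, 9.58, 9.10 and 9.43 with EGTA, and 8.94, 8.57, 8.63, 8.81, 8.76 and 8.89 in Cd14-deficient cells. Neither passed the test for the mean LPS effect, with changes of -0.023 and -0.022. The dim genes ranged from 4.51 to 6.44 (Eno2), from 4.18 to 6.21 (P4ha2) and from 4.12 to 6.57 (Adm, which encodes a vasodilator peptide), below the median of every array, and were not tested. Adm was higher at 2 h than without LPS in all 3 conditions, by 2.35 in wild type cells, 1.89 with EGTA and 1.71 in Cd14-deficient cells, with intensities of 72.0, 54.8 and 74.1 at 2 h against 1.54, 11.8 and 15.5. Where a called gene had further probe sets, all 26 of them had the same sign in the mean LPS effect, and the change was as small as -0.92 for Egln3, 0.70 for Pfkfb3 and -0.025 for Pfkp.

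**Figure D2:**
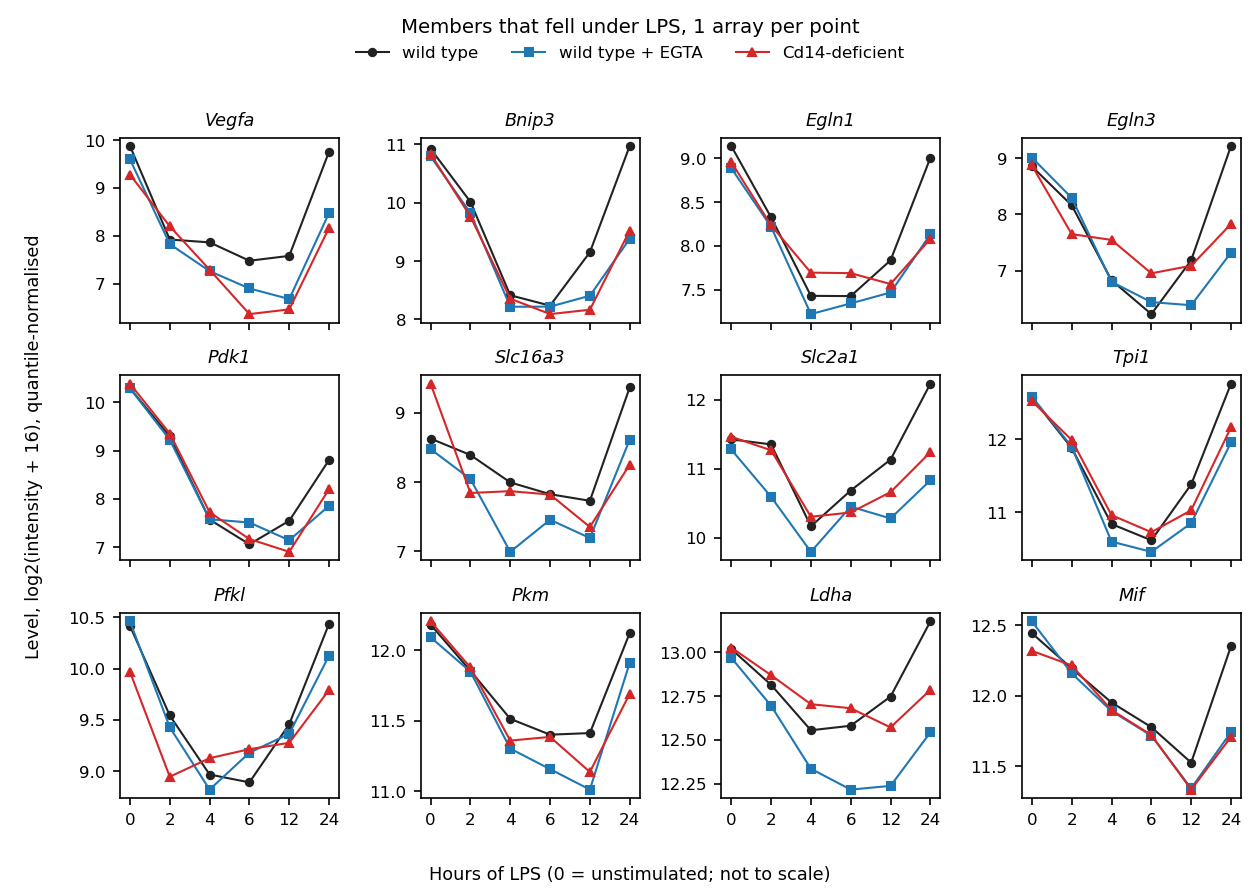
Levels, as quantile-normalised log2(intensity + 16), of 12 genes without LPS (0) and after 2 to 24 h of LPS, 1 point per array (wild type black circles, EGTA blue squares, Cd14-deficient red triangles). All 12 genes are lower at 4 h than without LPS in the 3 conditions, and at 24 h the wild type array is the highest of the 3 for each of them.

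Most of the genes that had fallen were higher again at 24 h. Between 12 and 24 h, 17 of the 26 genes rose and 0 fell, where 15.4% of all genes tested were called and 8.49% were called higher. This contrast was added after the levels by time had been seen, and its count is a description of that pattern. The part of time since plating in the rise was not tested. The median difference of the 26 genes was 0.43, and 19 of the 26 (73.1%) were higher at 24 than at 12 h in all 3 conditions, against 29.2% of all genes tested. Vegfa rose by 1.89 ± 0.24 (adjusted p = 0.000237), Bnip3 by 1.38 ± 0.24 (adjusted p = 0.00193), Slc16a3 by 1.32 ± 0.25 (adjusted p = 0.00358) and Tpi1 by 1.21 ± 0.14 (adjusted p = 9.25e-05). The other genes called were Egln3 at 1.24, Pdk1 at 1.09, Ddit4 at 1.03, Egln1 at 0.78, Pfkl at 0.75, Slc2a1 at 0.74, Pkm at 0.72, Mif at 0.53, Aldoa at 0.47, Pgk1 at 0.39, Ldha at 0.32, Pgam1 at 0.25 and Gapdh at 0.14. Hif1a, Hk2 and Pfkfb3 were not among them, at -0.17, 0.0018 and -0.16. The other probe set gave 0.98 for Vegfa, 0.81 for Egln3 and 0.53 for Pdk1, while Tpi1 reached 1.28. The lead of Vegfa therefore rests on the probe set used. The count was 10 without the wild type array of 24 h, 6 without the wild type arrays, 7 without the EGTA arrays, 11 without the Cd14-deficient arrays and 11 without the EGTA array of 12 h. Vegfa, Bnip3, Tpi1, Pdk1 and Pkm were called under every alternative run. Of 12 granulocyte markers, 6 were lower at 24 than at 12 h, and their part was not tested.

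Against 2 h, 8 genes were higher at 24 h and 6 lower. The share called, 53.8%, lay close to the 52.7% of all genes, and the split was 5 and 9 with median centring. Pfkfb3 was higher by 1.21, Ddit4 by 1.01, Vegfa by 0.82 and Pfkl by 0.81. The other probe set of Vegfa gave 0.21. Of 16 further probe sets of the called genes, 15 had the same sign and 1 the opposite one. Those lower were led by Aldoc at -1.89, Pdk1 at -1.0 and Pfkp at -0.69. Without the wild type arrays 8 genes were called, 2 higher and 6 lower.

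The return was unequal between the conditions on the single arrays of 24 h. From 12 to 24 h the median difference of the 26 genes was 0.67 in wild type cells, 0.38 with EGTA and 0.31 in Cd14-deficient cells, against 0.022, 0.018 and -0.0012 over all genes tested. At 24 h the wild type array was the highest of the 3 for 21 of the 26 genes (80.8%), against 31.4% of all genes tested. All these values share 1 wild type array. Bnip3 regained its unstimulated level in wild type cells, with 10.97 against 10.92, and stood at 9.38 and 9.52 in the other conditions, more than 1 unit below their own start. Slc2a1 exceeded its start by 0.80 in wild type cells and lay below it with EGTA (-0.45) and in Cd14-deficient cells (-0.22). Pdk1 remained below its start in all 3.

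The promoters of the listed genes were read as RefSeq gives them for GRCm38.p6, whatever the course of the gene. Genes not read or not tested on the arrays were kept. Each window ran from 250 bases before to 50 bases after a gene's start. The core letters of the HIF-binding motif, ACGTG or GCGTG, were searched on both strands, and the 6-letter E-box CACGTG, which other factors bind, overlaps them. Of the 33 listed genes, 30 had a promoter in the table and 27 of these (90%) held at least 1 match, against 69.5% of the 5812 tested genes with a promoter and 46.7% of all 27025 genes. By windows of equal length, since some genes have several starts, the shares were 80.5%, 63.3% and 43.8%. Tpi1, which dipped and returned, held none in its window, nor did Eno2 and Gpi1. The list was drawn up partly from known HIF targets, so the share describes the list, and a match is neither a bound site nor a cause.

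The 120 bases before the start are printed for 5 genes that dipped and returned and for P4ha1, which was called at none of the 5 times and was lowest in Cd14-deficient cells, in the gene's own direction and with the matches in capitals.
Bnip3, chr7:138909507-138909626, - strand: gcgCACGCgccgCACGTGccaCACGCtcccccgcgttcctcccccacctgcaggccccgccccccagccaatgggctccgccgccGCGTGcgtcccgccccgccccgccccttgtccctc
Slc16a3, chr11:120948947-120949066, + strand: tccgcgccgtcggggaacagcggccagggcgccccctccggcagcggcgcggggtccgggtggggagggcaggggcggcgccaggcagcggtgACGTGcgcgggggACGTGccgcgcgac
Slc2a1, chr4:119108625-119108744, + strand: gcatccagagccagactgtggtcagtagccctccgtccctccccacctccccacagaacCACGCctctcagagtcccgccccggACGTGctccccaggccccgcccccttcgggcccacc
Ldha, chr7:46845684-46845803, + strand: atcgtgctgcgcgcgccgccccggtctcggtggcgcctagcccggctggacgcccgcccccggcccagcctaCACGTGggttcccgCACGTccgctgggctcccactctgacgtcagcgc
Egln1, chr8:124949255-124949374, - strand: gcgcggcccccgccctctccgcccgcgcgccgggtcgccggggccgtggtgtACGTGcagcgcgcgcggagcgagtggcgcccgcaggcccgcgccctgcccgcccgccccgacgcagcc
P4ha1, chr10:59323176-59323295, + strand: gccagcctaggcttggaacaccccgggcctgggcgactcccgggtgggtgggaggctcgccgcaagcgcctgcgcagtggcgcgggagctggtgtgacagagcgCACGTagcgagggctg
Bnip3 held 5 matches on either strand in these bases, Ldha 3, Slc16a3 and Slc2a1 2 each, and Egln1 and P4ha1 1 each. In Bnip3 and in Ldha a pair of matches is the same CACGTG read on both strands. The printed genes do not stand for all genes that dipped and returned. Vegfa, Egln3, Mif, Aldoa, Pgk1 and Tpi1 did so too and held no match in the 120 bases before any of their starts.

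Cells without CD14 had lower levels of 9 glycolysis and hypoxia genes and higher levels of Aldoa and Slc2a3 across the LPS times, each time set against wild type cells of the same time. Slc2a3 passed the filter on dim genes through the 5 Cd14-deficient arrays alone, where it was high, and is given as a description. The 5 times served as replicates, and 29.7% of all 6929 genes tested were called, 12.6% as lower. The median difference of the 26 genes was -0.18. P4ha1 differed by -0.91 ± 0.086 (adjusted p = 1.13e-05), Vegfa by -0.82 ± 0.20 (adjusted p = 0.0071), Pfkfb3 by -0.61 ± 0.10 (adjusted p = 0.000742), Bnip3 by -0.58 ± 0.19 (adjusted p = 0.0371), Hif1a by -0.45 ± 0.044 (adjusted p = 1.54e-05) and Hk2 by -0.43 ± 0.076 (adjusted p = 0.0011). Smaller differences were called for Hk1 (-0.29), Pgk1 (-0.18) and Pgam1 (-0.17). Pfkfb3, Hif1a, Hk2, P4ha1, Bnip3, Pgk1 and Pgam1 were lower at all 5 times, and Vegfa and Hk1 at 4 of them. Aldoa was higher by 0.34 ± 0.075 (adjusted p = 0.00469) and Slc2a3 by 1.32 on the probe set used, both at all 5 times. All 4 probe sets of Slc2a3 were higher, from 0.38 to 1.32, and the one used gave the highest value.

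The LPS arrays of both genotypes did not overlap for P4ha1 and Hif1a, nor for Slc2a3, which passed the filter through the Cd14-deficient arrays alone. The share of all genes tested without such overlap was not counted, so these ranges are a description. Slc2a3 ran from 7.28 to 8.47 in Cd14-deficient cells and from 6.38 to 6.90 in wild type cells. P4ha1 ran from 8.57 to 8.89 and from 9.40 to 9.96, and Hif1a from 12.06 to 12.41 and from 12.49 to 12.88. The 4 probe sets of Hif1a gave differences between -1.26 and -0.45, and both probe sets of P4ha1 gave -0.91. The other probe sets gave differences down to 0.05 for Aldoa and to -0.02 for Pgk1, so these values rest on the probe set used. Over the called genes, all 15 further probe sets had the same sign, those of Slc2a3 included, so this count is a description. Hif1a, Hk2, P4ha1, Pfkfb3 and Vegfa were called under every alternative run. Slc2a3 was not tested with the mean of all probe sets or with the stricter filter on dim genes. The count, Slc2a3 included, fell from 11 to 7 without the wild type or the Cd14-deficient array of 24 h or without the times 12 or 24 h. With no scaling the split was 1 higher and 14 lower.

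**Figure D3:**
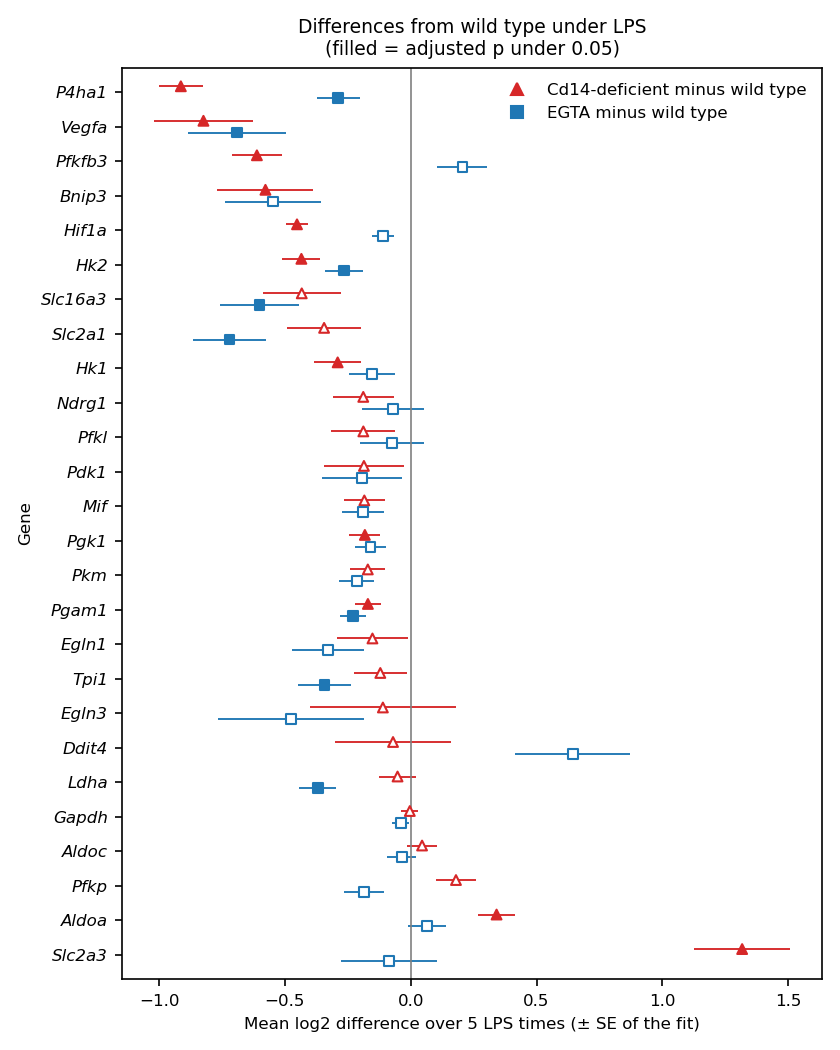
Mean log2 difference from wild type cells over the 5 LPS times for the 26 tested genes (points; bars are the standard error of the fit), for Cd14-deficient cells (red triangles) and EGTA (blue squares), filled where the adjusted p was under 0.05. Slc2a3, which passed the filter through the Cd14-deficient arrays alone, lies far to the right there at 1.32, P4ha1 lies farthest to the left at -0.91, and Slc2a1 is the lowest with EGTA at -0.72.

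Macrophage markers were lower in the same cells, 7 of 11 tested with 1 higher (Apoe -1.65, C1qc -1.36, Marco 1.67), with a summed intensity of 19577 to 32909 on the Cd14-deficient LPS arrays and 28269 to 40964 on the wild type ones. Granulocyte markers were higher in 5 of 12 cases and lower in 2 (Camp 1.53, Mmp9 -0.70), with sums of 19877 to 36107 against 14742 to 38893. Dendritic cell markers were higher in 3 of 8 cases (H2-Ab1 0.47, Kmo 0.55, Itgax 0.29). The mast cell and basophil markers Hdc, Cpa3 and Kit were lower, and Fcer1a, Ms4a2, Mcpt4 and Cma1 were at or below the median on all 18 arrays. The part of these cells in the differences was not tested, nor was the unstated LPS concentration.

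With EGTA, 8 genes were lower and 0 higher than in wild type cells over the LPS times, where 13.6% of all genes were called and 6.22% were called lower. The same wild type arrays served both comparisons. The median difference was -0.19. The glucose importer and the lactate exporter were among them, Slc2a1 at -0.72 ± 0.15 (adjusted p = 0.00682) and Slc16a3 at -0.60 ± 0.16 (adjusted p = 0.0232), together with Ldha at -0.37 ± 0.074 (adjusted p = 0.00646). The others were Vegfa (-0.69), Tpi1 (-0.34), P4ha1 (-0.29), Hk2 (-0.27) and Pgam1 (-0.23). Slc2a1, Slc16a3, Ldha, Vegfa, Hk2, P4ha1 and Pgam1 were lower at all 5 times and Tpi1 at 4 of them, and the groups of 5 LPS arrays overlapped for every gene. The count was 0 without both EGTA arrays of lower RNA integrity and 0 without the 12 h arrays, and 4 with no scaling (1 higher and 3 lower), so no single gene kept its call throughout. It also lay between 3 and 5 without the wild type array of 4, 6, 12 or 24 h or the EGTA array of 4, 6, 12 or 24 h, and was 4 and 3 without the 4 h and the 6 h arrays. Slc2a1 and Ldha kept negative differences in every alternative, from -0.84 to -0.55 and from -0.43 to -0.29. Macrophage markers were higher in 4 of 11 cases with EGTA, led by Marco at 1.29, and their part was not tested.

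Set directly against each other, Cd14-deficient and EGTA cells differed in 8 of the 26 genes, 4 higher, Slc2a3 included, and 4 lower, where 31.3% of all genes were called, a share near that of the members. Slc2a3, which again passed the filter through the Cd14-deficient arrays alone, was higher by 0.59 to 1.40 over its 4 probe sets. Pfkp was higher without CD14 by 0.37 ± 0.078 (adjusted p = 0.00375), Ldha by 0.32 ± 0.074 (adjusted p = 0.00649) and Aldoa by 0.28 ± 0.075 (adjusted p = 0.0139). Pfkfb3 was lower by -0.82 ± 0.10 (adjusted p = 7.46e-05), Ddit4 by -0.71 ± 0.23 (adjusted p = 0.0308), P4ha1 by -0.63 ± 0.086 (adjusted p = 0.000192) and Hif1a by -0.34 ± 0.044 (adjusted p = 0.000115). Without scaling the split was 1 higher and 7 lower. For Vegfa, Bnip3 and Hk2 no difference passed the test, with -0.13 ± 0.20 (adjusted p = 0.645), -0.03 ± 0.19 (adjusted p = 0.925) and -0.17 ± 0.076 (adjusted p = 0.109). Macrophage markers were lower without CD14 than with EGTA in 7 of 11 cases and higher in 1, with a median of -0.53 and summed intensities of 19577 to 32909 against 32913 to 37403. Granulocyte markers were higher in 6 of 12 cases and lower in 3, and all 3 plasmacytoid dendritic cell markers tested were lower. Their part in these differences was not tested.

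**Figure D4:**
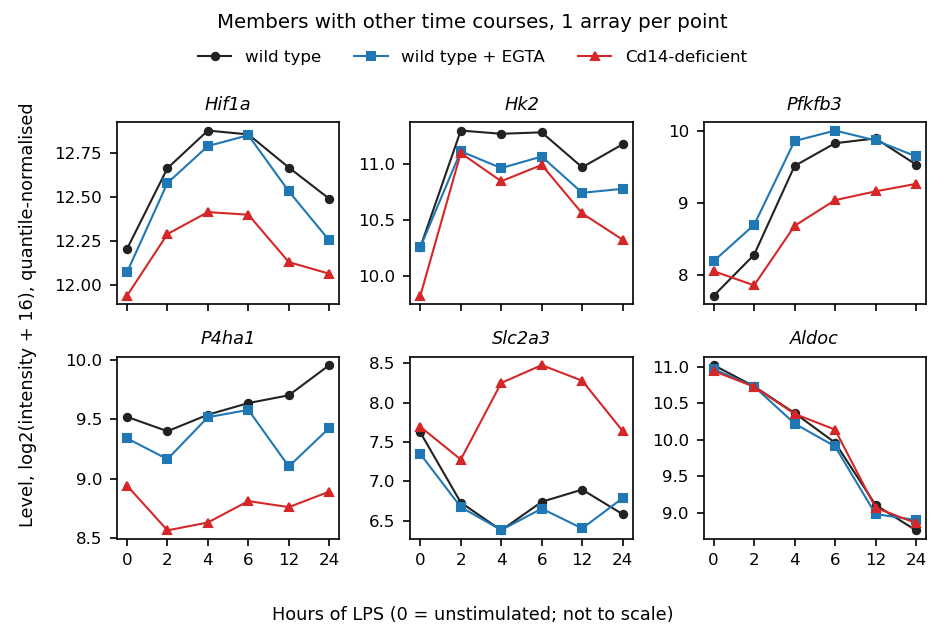
Levels, as quantile-normalised log2(intensity + 16), of 6 genes whose courses differ from the dip and return, without LPS (0) and after 2 to 24 h of LPS, 1 point per array (wild type black circles, EGTA blue squares, Cd14-deficient red triangles). Hif1a, Hk2 and Pfkfb3 rise, P4ha1 is lowest and Slc2a3 from 2 h on highest in Cd14-deficient cells, and the 3 lines of Aldoc lie on each other.

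The differences from wild type were wider at the late times on the single arrays. In Cd14-deficient cells the median difference of the 26 genes was -0.07, -0.03 and -0.02 at 2, 4 and 6 h, -0.27 at 12 h and -0.58 at 24 h, where the median over all genes stayed between 0.02 and 0.05. The EGTA medians were -0.06, -0.13, -0.07, -0.35 and -0.42, and over all genes 0.00 to 0.02. The EGTA arrays of 12 and 24 h were those of lowest RNA integrity, 8.8 and 8.7. With EGTA, lateness and RNA integrity therefore cannot be told apart. At 24 h Egln3 was at -1.39 without CD14 and at -1.90 with EGTA, Vegfa at -1.59 and -1.28, Bnip3 at -1.45 and -1.59, and Slc2a1 at -0.99 and -1.40. The test of late (12 and 24 h) minus early (2, 4 and 6 h) differences called 0 genes in either comparison (limma), where 0.0433% of all genes were called without CD14 and 0% with EGTA. At an unadjusted p under 0.05 it held 16 of 26 genes without CD14, against 939 of all 6929, and 13 with EGTA, against 819. The smallest adjusted p among the members was 0.0655 without CD14 (Bnip3 and Tpi1, at -1.07 and -0.59) and 0.0827 with EGTA (Bnip3, at -1.03). Without the wild type array of 12 h, 3 genes were called without CD14 and 4 with EGTA, all lower, and without the EGTA array of 12 h 1 was called with EGTA.

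Before LPS, on 1 array per condition and with no test, Cd14-deficient cells differed from wild type by -0.60 to 0.79 over the 26 genes and EGTA cells by -0.28 to 1.08. Without CD14, Vegfa was at -0.60, P4ha1 at -0.58, Hk2 at -0.43 and Hif1a at -0.27, the same sign as under LPS, while Pfkfb3 was at 0.34 and Slc2a3 at 0.072. Whether LPS moved a gene differently between conditions was tested as an interaction, with the lone unstimulated array assumed to vary like the LPS arrays, and 0 members were called in Cd14-deficient or EGTA cells, where 0.156% and 1.66% of all genes were. At an unadjusted p under 0.05 there were 4 members and 1 member, against 603 and 1056 of 7056 genes. The interaction without CD14 was 1.25 ± 0.46 (adjusted p = 0.477) for Slc2a3, -0.95 ± 0.25 (adjusted p = 0.271) for Pfkfb3 and -1.22 ± 0.38 (adjusted p = 0.395) for Slc16a3, so a difference in induction was not separable from the spread of these arrays.

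Genes of neighbouring pathways were called about as often as all genes in the mean LPS effect, from 58.3% to 73.3% of a list against 62%. Of 15 other glycolysis and glucose genes tested, 10 fell and 1 rose in the mean LPS effect, among them Pygl, which breaks down glycogen (-1.22), the lactate carrier Slc16a1 (-1.16) and Gpd2, the mitochondrial glycerol phosphate dehydrogenase (0.64). In Cd14-deficient cells 5 of 13 were higher and 1 lower, against 29.7% of all genes called, and those higher held the pentose phosphate genes Tkt (0.38), Pgls (0.49), Pgd (0.38) and Taldo1 (0.29). Of 24 other hypoxia-induced genes, 9 fell and 5 rose with LPS, the latter led by the vasoconstrictor gene Edn1 (5.10) and the collagen cross-linking enzyme gene Lox (2.43). With EGTA 7 of these 24 were lower and 1 higher (Lox -1.16, Fam162a -0.68, Cxcr4 1.29), where 13.6% of all genes were called, and between 12 and 24 h 6 were higher and 1 lower, where 15.4% were. Of 9 HIF regulators, 4 rose and 2 fell with LPS, and Cited2, which competes with HIF for its coactivator, rose by 0.65 and was the only one called without CD14, at -0.50. Of 6 pyruvate oxidation genes, 3 fell and 1 rose with LPS (Pdha1 -0.61, Dld 0.52). Among 14 kinases and factors known to drive glycolysis, 6 fell and 4 rose, with Myc at -1.68, the glucose-responsive Txnip at -1.43 and the kinase gene Ikbke at 2.49.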

How the data were processed

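RNA of 18 mouse dendritic cell cultures was measured on Affymetrix arrays, 1 per condition and time, from 3 µg of RNA each. The deposited intensity values, 1 per probe set, were made by the authors with MAS5, per the submitters' processing notes, with version and scaling target not given in the sources used here. Of 22690 probe sets, the platform annotation gave 20393 a single gene, 691 several and 1606 none, and only single-gene probe sets were used. All 29 members matched RefSeq (GRCm38.p6) by gene identifier. Values were quantile-normalised as log2(intensity + 16). Genes were tested if at least 2 arrays of a fit held them above the median. Tests used limma 3.58.1 in R 4.3.3 (lmFit, eBayes with an intensity trend) with Benjamini-Hochberg adjustment at 0.05 over all genes tested, and errors are standard errors of the fit. Conditions were compared over the 15 LPS arrays with time as a block, LPS over 18 arrays with condition as a block, and late against early times and LPS induction as interactions. The steps were tested on simulated data. No label says that arrays came from separate cultures, so the p-values reflect only how these arrays scatter, possibly for technical reasons, and precision is limited by their number. Values on every array are given for members called in a condition contrast or in the 24 h minus 2 h contrast, or called with a change of at least 1 in the mean LPS effect. The members and all gene lists were chosen with earlier results of these data known. Up to 4 genes of smallest p were to be named per list, and examples beyond that were chosen after their values were seen. The alternatives were other scalings, added constants, filters, variance settings, probe set rules and arrays left out.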

Additional observations from a re-analysis of the deposited data

Results flagged for a closer look

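The difference of Mif between EGTA and wild type cells at 24 h was -0.61, apart from the other 4 times, which ran from -0.18 to -0.04. It was the 1 of 52 sets of 5 differences in which a time stood apart by Dixon's criterion, which flags about 1 in 20 sets of values without cause.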

How the results depend on the processing

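Of the members called in Cd14-deficient against wild type cells, 5 of 11 were called under every alternative, 0 of 8 with EGTA, 3 of 8 between Cd14-deficient and EGTA cells, 16 of 23 for the mean LPS effect, 5 of 17 for 24 against 12 h and 5 of 14 for 24 against 2 h. Slc2a3, counted among the 11 and the 8 called in Cd14-deficient cells, was not tested under 2 of the alternatives. With median centring, changes reversed for Pfkp (0.014) and Gapdh (0.27) in the mean LPS effect, for Gapdh at 4, 6 and 12 h (0.38, 0.30 and 0.078) and Pgk1 at 4 h (0.014), and at 2 h for Pfkp (0.35), Pkm (0.15), Pgam1 (0.069), Pgk1 (0.29), Aldoc (0.13) and Gapdh (0.37). The same centring called 1 member in the EGTA induction test. With no further scaling Hif1a at 24 h turned to -0.0063, and the counts were 4 with EGTA and 10 for 24 against 12 h. The EGTA count was 5 without the filter, 5 without the intensity trend and 0 without both EGTA arrays of lower RNA integrity. Median centring and no scaling are shifts applied to whole arrays, and other causes were not tested.

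Leaving out an array, a time or a condition in turn gave 7 to 11 members called without CD14, 0 to 9 with EGTA and 6 to 10 between these conditions. It gave 20 to 24 for the mean LPS effect, 9 to 16 at 2 h, 20 to 22 at 4 and at 6 h, 21 to 24 at 12 h, 10 to 16 at 24 h, 8 to 15 for 24 against 2 h and 6 to 18 for 24 against 12 h. The late against early test called 0 to 3 without CD14 and 0 to 4 with EGTA, and the induction tests 0 and 0 to 1, the 1 member appearing without the wild type array of 2 h. Over all genes, calls in the mean LPS effect split 1925 higher and 2448 lower, 2439 and 1514 with median centring and 921 and 3707 with no scaling. For Cd14-deficient against wild type cells they split 1184 and 874, 823 and 1070, and 301 and 1058. The EGTA late against early test could not be run without both EGTA arrays of lower RNA integrity. The fits pair arrays by time or by condition through their blocks, and by replicate no paired analysis was possible because the labels give no replicate numbers.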
